A study of Mus musculus with 12 samples.

Results

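The 6 genes described here, Pax7, Pax3, Myf5, Myod1, Myog and Myf6, encode the transcription factors that set aside muscle stem cells and drive skeletal muscle formation. They were taken by symbol from a table of expression values for 23284 genes, where each is listed once. Values are FPKM (fragment counts divided by transcript length and by library size) in 12 RNA-seq libraries of mouse cells. All cells came from strain 129P2/OlaHsd and were sorted by flow cytometry as positive for the adhesion molecules α7-integrin and VCAM and negative for CD31, an endothelial antigen, and CD45, a leukocyte antigen.

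The libraries form 4 groups of 3 biological replicates. Transplant cells were sorted again from tibialis anterior muscle 1 month after it had received α7-integrin+ VCAM+ cells of teratomas. Teratoma cells were sorted from teratomas at 3 weeks of age; a teratoma is a tumour of many tissues grown from pluripotent stem cells. Adult cells came from total hindlimbs of 8-week-old male mice, and embryo cells from whole E14.5 embryos, a stage of fetal muscle growth. The labels do not give the strain of the recipient animals or a step that separates donor from resident cells of the muscle, and they do not say whether animals were pooled. For adult and embryo cells, age and body site cannot be told apart.

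PAX3 and PAX7 are paired-box factors. In the mouse, PAX3 acts mainly in the early somite and in migrating limb muscle precursors, whereas PAX7 marks fetal muscle progenitors and the satellite cells of adult muscle. Both stand upstream of the myogenic regulatory factors, basic helix-loop-helix (bHLH) proteins that bind E-boxes together with E proteins such as TCF3. MYF5 and MYOD1 commit cells to the muscle lineage, MYOG drives terminal differentiation and MYF6 (MRF4) acts in differentiating and mature fibres.

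On mouse build mm10 with GENCODE M21 annotation, Pax7 lies at chr4:139737062-139833528 on the minus strand and Pax3 at chr1:78101267-78197134 on the minus strand. Myf5 (chr10:107482908-107486134, minus strand) and Myf6 (chr10:107492853-107494737, minus strand) are neighbours with 6718 bases between them. Myod1 lies at chr7:46376474-46379099 and Myog at chr1:134289989-134292548, both on the plus strand. Promoter sequences of RefSeq on GRCm38.p6, from 250 bases before to 50 after the start site, were available for 3 of the 6 members, Pax7, Myf5 and Myog. Those of Myog and Myf5 are shown because these genes moved in opposite directions between adult and embryo cells. Capitals mark E-boxes (CANNTG) and the MEF3 motif (TCAGGTTTC), searched on both strands.
Myog promoter, chr1:134289754-134290053, plus strand: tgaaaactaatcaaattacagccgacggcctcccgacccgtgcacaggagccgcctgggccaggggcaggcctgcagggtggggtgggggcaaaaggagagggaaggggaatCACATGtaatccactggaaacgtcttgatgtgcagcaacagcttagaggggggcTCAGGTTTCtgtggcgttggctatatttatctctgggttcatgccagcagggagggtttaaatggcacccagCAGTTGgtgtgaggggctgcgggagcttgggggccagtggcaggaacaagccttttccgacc
Myf5 promoter, chr10:107486085-107486384, minus strand: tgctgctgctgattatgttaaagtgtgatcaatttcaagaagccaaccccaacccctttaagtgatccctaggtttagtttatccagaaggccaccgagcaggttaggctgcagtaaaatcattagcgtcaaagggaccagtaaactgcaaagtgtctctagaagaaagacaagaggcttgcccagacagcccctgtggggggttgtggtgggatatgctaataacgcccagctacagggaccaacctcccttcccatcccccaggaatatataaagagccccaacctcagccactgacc

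The Myog window held 2 E-boxes, CACATG starting at -138 and CAGTTG at -12 from the start site, and 1 MEF3 motif at -84. No motif overlapped another. Of 32851 promoter windows of this length, 39.6% held at least 2 E-boxes and 0.429% held the MEF3 motif. The Myf5 and Pax7 windows held neither motif, while at least 1 E-box was found in 72.3% of all windows. These matches describe the letters only.

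Related members could share reads where their transcripts are identical, so the longest identical runs are shown. Among the 15 pairs of members, no run was longer than 26 bases. The first lies across an exon junction of both paired-box genes. The second codes for part of the basic, DNA-binding region (chr10:107485654-107485679, minus strand, in Myf5 and chr7:46377003-46377028, plus strand, in Myod1). The read length is not given in the sources used here.
Pax7 and Pax3, shared coding bases: ctggaagtgtccacccctcttggcca
Myf5 and Myod1, shared coding bases: cgcaaggccgccaccatgcgcgagcg
Myod1 and Myog, shared coding bases: aaagtgaatgaggccttcgag

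The libraries listed between 9495 and 12000 genes at 1 FPKM or more, fewest in the adult group. Read depth is unknown, and an exact 0 in such a table can be a failed estimate. Embryo replicate 2 had 74 genes at 0 where both other embryo libraries were at 5 FPKM or more, against 6 to 27 such genes in every other library. Without it, the number of members called was the same in each of the 6 comparisons. The groups also differed in scale: median-ratio factors were 0.941 to 0.978 in transplant, 1.10 to 1.29 in teratoma, 0.816 to 0.823 in adult and 1.12 to 1.33 in embryo libraries. The median log2 change of all genes was -0.28 for transplant against teratoma cells, 0.23 for transplant against adult cells, -0.24 for transplant against embryo cells, 0.50 for teratoma against adult cells, 0.01 for teratoma against embryo cells and -0.42 for adult against embryo cells, and each member's change should be read beside it. The sort genes were detected in all libraries: Itga7 stood at 43.1 ± 10.9 FPKM in transplant, 43.9 ± 4.02 in teratoma, 62.0 ± 0.506 in adult and 10.4 ± 0.578 in embryo cells (SD, n = 3 each).

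Pax7 was highest in transplant cells, followed by teratoma, embryo and adult cells. It had 39.8, 32.3 and 54.8 FPKM in transplant, 25.5, 23.5 and 20.1 FPKM in teratoma, 8.24, 9.02 and 10.1 FPKM in adult and 14.7, 14.3 and 13.1 FPKM in embryo libraries. The 4 groups did not overlap. Mean levels were 42.3 ± 11.5, 23.1 ± 2.72, 9.11 ± 0.916 and 14.0 ± 0.875 FPKM in transplant, teratoma, adult and embryo cells (SD, n = 3 each).

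Changes were tested with limma on log2(FPKM + 1), with Benjamini-Hochberg adjustment over 12699 genes, and the word called is used for an adjusted p below 0.05. Pax7 rose in transplant against teratoma cells by a log2 change of 0.82 (SE 0.19, adjusted p = 0.0103). It was also higher in transplant than in adult cells (log2 change 2.07, adjusted p = 1.23e-05) and than in embryo cells (1.49, adjusted p = 7.2e-05). In teratoma cells it exceeded adult cells by 1.25 (adjusted p = 0.000315), a value that was 0.75 after median-ratio scaling, where it was still called (adjusted p = 0.00903). The smaller steps were less stable. Teratoma cells exceeded embryo cells by 0.67 (adjusted p = 0.0225), a call lost when embryo replicate 3, teratoma replicate 1 or teratoma replicate 2 was left out (adjusted p = 0.0603, 0.0675 and 0.0686; all alternatives gave 0.0122 to 0.0686). Adult cells were below embryo cells by -0.58 on the log2 scale (adjusted p = 0.0238). This last difference was -0.08 after median-ratio scaling (adjusted p = 0.767) and -0.19 after quantile normalization (adjusted p = 0.468), and leaving out adult replicate 1, embryo replicate 1 or adult replicate 2 ended the call (adjusted p = 0.0782, 0.0623 and 0.0572; all alternatives gave 0.012 to 0.767).

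**Figure D1:**
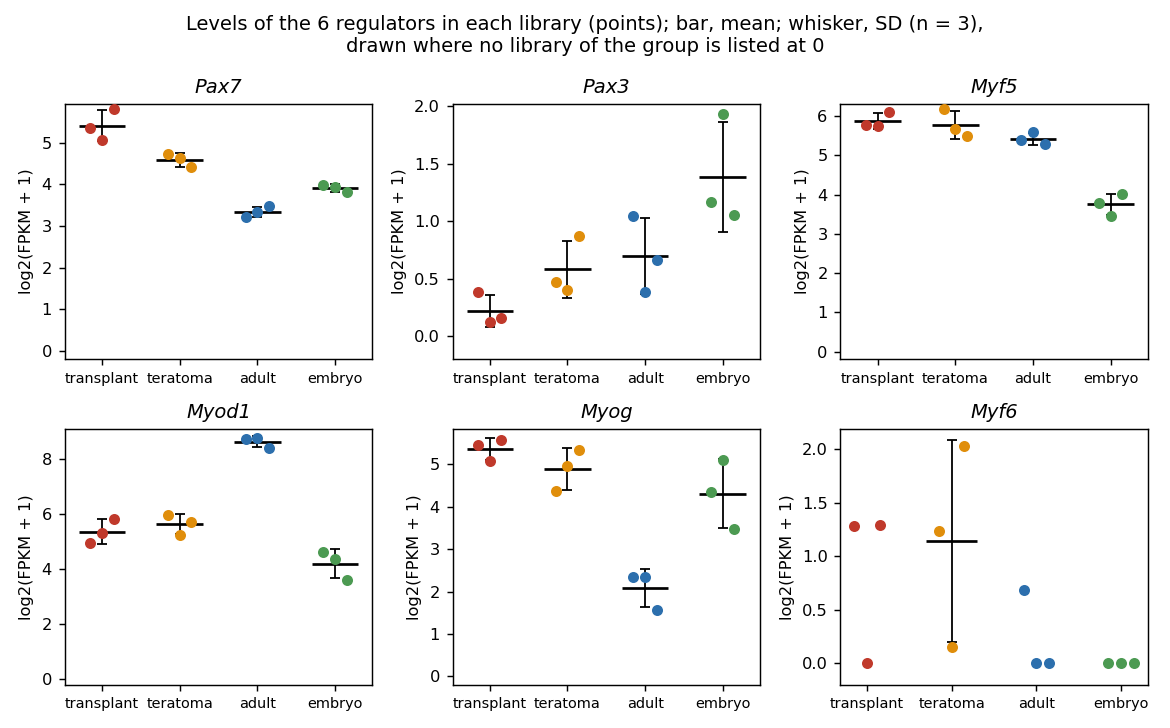
Levels of the 6 regulators as log2(FPKM + 1), 1 panel per gene and 1 point per library, in transplant, teratoma, adult and embryo cells. Bars and whiskers give the mean and SD of 3 libraries and are left out where a library is listed at 0. At the deposited scale Pax7 separates all 4 groups, Myod1 is high in the 3 adult libraries (343 to 442 FPKM) and Myog is low there (1.97 to 4.08 FPKM).

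Pax3 was low everywhere. Its values were 0.305, 0.0880 and 0.115 FPKM in transplant, 0.386, 0.323 and 0.826 FPKM in teratoma, 1.07, 0.305 and 0.585 FPKM in adult and 1.24, 2.81 and 1.07 FPKM in embryo libraries. Only the 3 embryo libraries and adult replicate 1 reached 1 FPKM, so Pax3 passed the filter on low values (at least 1 FPKM in at least 3 libraries) through the embryo group. Within each library Pax7 exceeded Pax3 by 130 to 475 times in transplant, 24.4 to 72.9 times in teratoma, 7.72 to 29.6 times in adult and 5.10 to 12.2 times in embryo cells. The ratio was thus highest in the 3 transplant libraries, whose values did not overlap those of any other group. It was taken with no pseudocount and rests there on Pax3 values near 0, at 0.305 FPKM or less.

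Because Pax3 passed the filter through the group where it was high, its comparisons with embryo cells are given as values beside those of a fit with no filter. The log2 change for transplant against embryo cells was -1.16 (SE 0.29, adjusted p = 0.00671), and with no filter it was -1.16 (adjusted p = 0.00669). With a pseudocount of 0.1 in place of 1 that change was -2.71 (adjusted p = 0.00519), since a pseudocount of 1 compresses levels this low. The other 5 comparisons were not called. The change was -0.80 (adjusted p = 0.0616) for teratoma against embryo cells and -0.68 (adjusted p = 0.0655) for adult against embryo cells. In the limma fit with no filter neither was called (adjusted p = 0.0562 and 0.0651). The calls gained below are from fits with the filter. The teratoma and embryo comparison was called without embryo replicate 3 (adjusted p = 0.0465) and after quantile normalization (adjusted p = 0.0333), and that of adult with embryo cells when embryo replicate 3 or adult replicate 1 was left out (adjusted p = 0.0428 and 0.0472). Teratoma against adult cells, at -0.12 as deposited, was -0.88 and called after quantile normalization (adjusted p = 0.0444).

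Myf5, the first of the regulatory factors to appear in the mouse embryo, was lowest in embryo cells. It had 53.3, 52.6 and 68.1 FPKM in transplant, 71.5, 49.9 and 43.9 FPKM in teratoma, 40.8, 47.1 and 38.1 FPKM in adult and 12.9, 10.04 and 15.02 FPKM in embryo libraries. Every embryo library lay below every other library. The log2 change was 2.12 (SE 0.21, adjusted p = 8.6e-06) for transplant against embryo cells, 2.02 (adjusted p = 3.32e-05) for teratoma against embryo cells and 1.67 (adjusted p = 3.3e-05) for adult against embryo cells.

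Among the other 3 groups no Myf5 difference was called. Transplant cells differed from teratoma cells by 0.09 (95% interval -0.36 to 0.54, adjusted p = 0.783), and teratoma cells from adult cells by 0.36 (-0.09 to 0.81, adjusted p = 0.174). The 3 transplant libraries lay above the 3 adult libraries, with a change of 0.45 (0.00 to 0.90, adjusted p = 0.0956). That difference was called after quantile normalization (adjusted p = 0.0238) and when only these 2 groups were fitted (adjusted p = 0.0417).

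Myod1 separated adult cells from all others. It had 29.8, 39.1 and 56.1 FPKM in transplant, 62.2, 37.1 and 51.9 FPKM in teratoma, 423, 442 and 343 FPKM in adult and 23.6, 19.8 and 11.2 FPKM in embryo libraries. Every adult library lay far above every other library. Among 11016 tested protein-coding genes Myod1 ranked 517 to 1065 in transplant, 607 to 1009 in teratoma, 55 to 70 in adult and 1510 to 4044 in embryo cells.

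The log2 change of Myod1 was -3.28 (SE 0.29, adjusted p = 9.08e-06) for transplant against adult cells, -3.00 (adjusted p = 1.39e-05) for teratoma against adult cells and 4.45 (adjusted p = 2.32e-07) for adult against embryo cells. Transplant and teratoma cells also exceeded embryo cells, by 1.17 (adjusted p = 0.00658) and 1.45 (adjusted p = 0.00328). Between transplant and teratoma cells the libraries overlapped and the change was -0.28 (95% interval -0.92 to 0.35, adjusted p = 0.524). The calls against adult and embryo cells held under every alternative run for Myod1.

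Myog showed the reverse pattern in adult cells, where it was lowest. It had 42.9, 32.6 and 46.6 FPKM in transplant, 19.5, 30.1 and 39.6 FPKM in teratoma, 4.08, 4.03 and 1.97 FPKM in adult and 19.4, 33.2 and 10.1 FPKM in embryo libraries. No adult library overlapped any library of another group, while the embryo libraries overlapped those of teratoma and transplant cells. Among protein-coding genes its rank was 636 to 1042 in transplant, 872 to 2337 in teratoma, 5383 to 7013 in adult and 1116 to 4399 in embryo cells.

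The log2 change of Myog was 3.28 (SE 0.38, adjusted p = 4.68e-05) for transplant against adult cells, 2.81 (adjusted p = 0.000139) for teratoma against adult cells and -2.22 (adjusted p = 0.000406) for adult against embryo cells. It was not called for transplant against teratoma cells (0.48, 95% interval -0.35 to 1.31, adjusted p = 0.405) or for teratoma against embryo cells (0.58, -0.25 to 1.41, adjusted p = 0.297). Transplant cells exceeded embryo cells by 1.06 (adjusted p = 0.0416), a call that was lost in 10 of 21 alternatives (range 0.00699 to 0.167). It was not called without embryo replicate 1, embryo replicate 3, transplant replicate 1, transplant replicate 3, teratoma replicate 2 or adult replicate 2 (adjusted p = 0.0759, 0.167, 0.0998, 0.114, 0.0545 and 0.0503), and the change without embryo replicate 3 was 0.64.

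Myf6 was at or near 0 in most libraries. It was listed at 1.43, 0 and 1.45 FPKM in transplant, 1.36, 0.113 and 3.10 FPKM in teratoma, 0.607, 0 and 0 FPKM in adult and 0 FPKM in all 3 embryo libraries. It passed the filter through 2 transplant and 2 teratoma libraries. No comparison was called in limma; the adjusted p was 0.702 for transplant against teratoma, 0.295 for transplant against adult, 0.157 for transplant against embryo, 0.125 for teratoma against adult, 0.0909 for teratoma against embryo and 0.705 for adult against embryo cells. Without transplant replicate 2, which was listed at 0, the call was made for transplant against embryo cells (adjusted p = 0.0469). Without teratoma replicate 2 it was made for teratoma against adult and teratoma against embryo cells (adjusted p = 0.0235 and 0.0217), for a gene that passed the filter through those groups. Myf5, its neighbour on chromosome 10, was at 10.04 FPKM or more in all 12 libraries.

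Read by comparison, 1 of the 6 members was called in transplant against teratoma cells, namely Pax7, where 22.6% of all tested genes were called. In transplant against adult cells 3 members were called (Pax7 and Myog higher, Myod1 lower), against a background of 44.2%. In transplant against embryo cells 4 were called against 42.5%, with Pax7, Myf5, Myod1 and Myog all higher; Pax3, which passed the filter through the embryo group, is left out of this count. In teratoma against adult cells 3 were called against 45.4%, with the same directions as for transplant cells. In teratoma against embryo cells 3 were called (Pax7, Myf5 and Myod1, all higher) against 26%. In adult against embryo cells 4 were called (Myf5 and Myod1 higher, Pax7 and Myog lower, with Pax7 not called after either rescaling) against 52.8%. The comparisons share groups and are therefore not independent of each other. The share of members called was below the background for transplant against teratoma cells and above it in the other comparisons. It stood furthest above for transplant and teratoma cells against embryo cells. For adult against embryo cells it is above only with Pax7 counted. With so many genes called in most comparisons, these shares rest on 6 genes and are not read as a result about the members.

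In a test of whether the transplant against teratoma change differs from the adult against embryo change, 4 of the 6 members were called against a background of 38.9%; they are Pax7, Myf5, Myod1 and Myog, and their values stand among the additional observations.

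**Figure D2:**
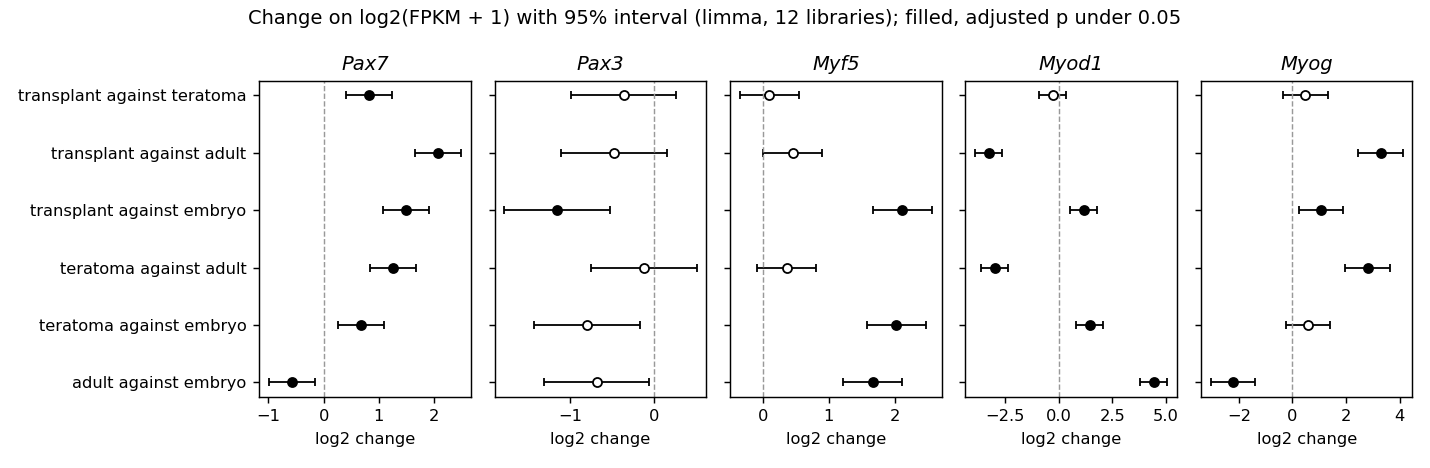
Log2 change on log2(FPKM + 1) of 5 regulators in the 6 comparisons, with 95% intervals from limma over 12 libraries; filled points have an adjusted p under 0.05. The horizontal scale differs between panels. Myf6 is left out because its embryo libraries are listed at 0. Pax7 is filled in every comparison, from 2.07 for transplant against adult cells to -0.58 for adult against embryo cells (not called after rescaling). Pax3 is filled only for transplant against embryo cells, and it passed the filter through the embryo group. Myod1 reaches 4.45 for adult against embryo cells.

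The make-up of the set within each library is free of differences in scale between libraries. Myod1 held 22.5 ± 4.07% of the summed FPKM of the 6 genes in transplant, 31.1 ± 4.25% in teratoma, 87.9 ± 0.709% in adult and 26.6 ± 5.57% in embryo cells (SD, n = 3 each). Myog held 22.3 ± 2.85% in transplant, 19.0 ± 7.29% in teratoma, 0.718 ± 0.191% in adult and 29.5 ± 10.9% in embryo cells. Pax7 made up 22.8 ± 1.93% in transplant, 14.49 ± 2.04% in teratoma, 2.02 ± 0.462% in adult and 21.4 ± 4.09% in embryo cells. Thus 4 genes, Pax7, Myf5, Myod1 and Myog, shared the sum in transplant, teratoma and embryo cells, and Myod1 took most of it in adult cells. The summed level itself was 184 ± 38.0 FPKM in transplant, 160 ± 19.7 in teratoma, 458 ± 57.2 in adult and 67.5 ± 15.3 in embryo cells.

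**Figure D3:**
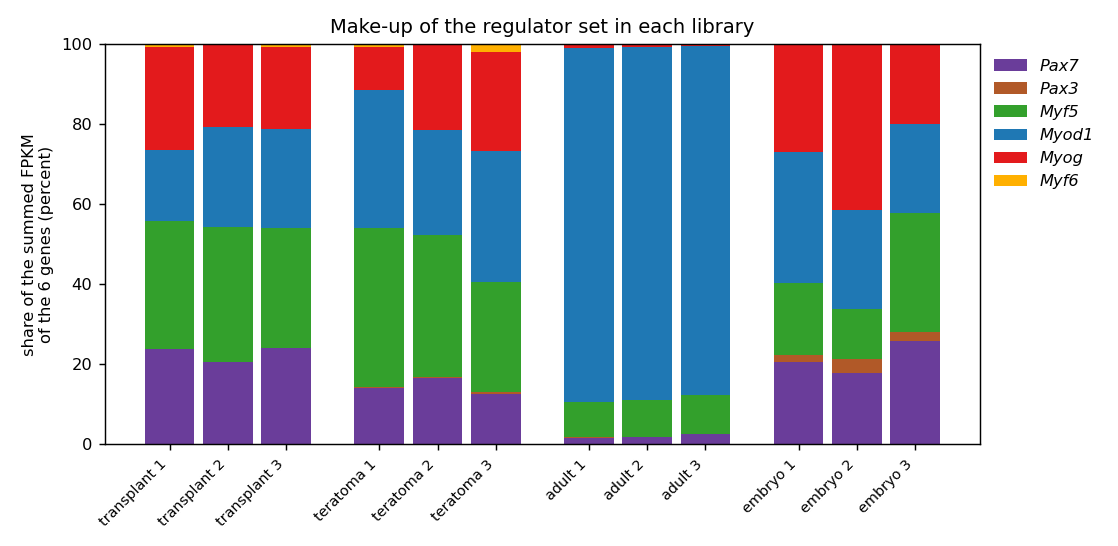
Share of each gene in the summed FPKM of the 6 regulators, in percent, with 1 bar per library. Myod1 fills 87.1% to 88.5% of the 3 adult bars. Pax7, Myf5, Myod1 and Myog each hold 10.8% or more of every transplant, teratoma and embryo bar.

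Ratios between 2 members of the same library were compared across the 4 groups by an exact permutation test on the F statistic (one-sided on F, 369600 assignments), adjusted over the 6 ratios tested. Pairs of groups with 3 libraries each cannot reach an exact p below 0.1, so only the test over all 4 groups is given. Ratios are log2 of (FPKM + 1) over (FPKM + 1), and a value of 0 means equal levels.

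Pax7 relative to Myf5 sets the stem cell factor against the early commitment factor. Its values were -0.41, -0.69 and -0.31 in transplant, -1.45, -1.05 and -1.09 in teratoma, -2.18, -2.26 and -1.82 in adult and 0.18, 0.47 and -0.19 in embryo libraries. The 4 groups did not overlap, with embryo cells highest and adult cells lowest (exact permutation p = 6.49e-05, adjusted p = 0.00039).

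Pax7 relative to Myod1 averaged 0.03 ± 0.34 in transplant, -1.07 ± 0.38 in teratoma, -5.32 ± 0.31 in adult and -0.29 ± 0.44 in embryo cells (SD, n = 3 each; exact permutation p = 0.000649, adjusted p = 0.00195). On the linear FPKM scale Pax7 was 0.826 to 1.34 times Myod1 in transplant, 0.388 to 0.634 times in teratoma, 0.0195 to 0.0293 times in adult and 0.625 to 1.17 times in embryo libraries. Transplant libraries lay above those of teratoma cells and overlapped those of embryo cells.

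Myog relative to Myod1, a terminal factor against a commitment factor, averaged -0.00 ± 0.44 in transplant, -0.77 ± 0.74 in teratoma, -6.57 ± 0.25 in adult and 0.10 ± 0.54 in embryo cells (exact permutation p = 0.00409, adjusted p = 0.00614). On the linear FPKM scale Myod1 was 0.695 to 1.20 times Myog in transplant, 1.23 to 3.18 times in teratoma, 104 to 174.5 times in adult and 0.596 to 1.22 times in embryo libraries. The adult libraries stood apart from all others by a wide gap.

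Myf5 relative to Myod1 averaged 0.50 ± 0.28 in transplant, 0.13 ± 0.33 in teratoma, -3.23 ± 0.10 in adult and -0.45 ± 0.73 in embryo cells (exact permutation p = 0.00201, adjusted p = 0.00403). Apart from the adult group, the groups overlapped.

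Pax7 relative to Myog averaged 0.04 ± 0.17 in transplant, -0.30 ± 0.66 in teratoma, 1.25 ± 0.56 in adult and -0.40 ± 0.75 in embryo cells (exact permutation p = 0.0228, adjusted p = 0.0228). Every adult library lay above every library of the other groups. Without adult replicate 3 the adjusted p was 0.132. Myf6 relative to Myog averaged -4.51 ± 0.49 in transplant, -3.75 ± 0.92 in teratoma, -1.85 ± 0.42 in adult and -4.31 ± 0.81 in embryo cells (exact permutation p = 0.0112, adjusted p = 0.0134). With Myf6 at 0 in 6 of the 12 libraries this ratio follows the level of Myog, and with a pseudocount of 0.1 the adjusted p was 0.143.

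**Figure D4:**
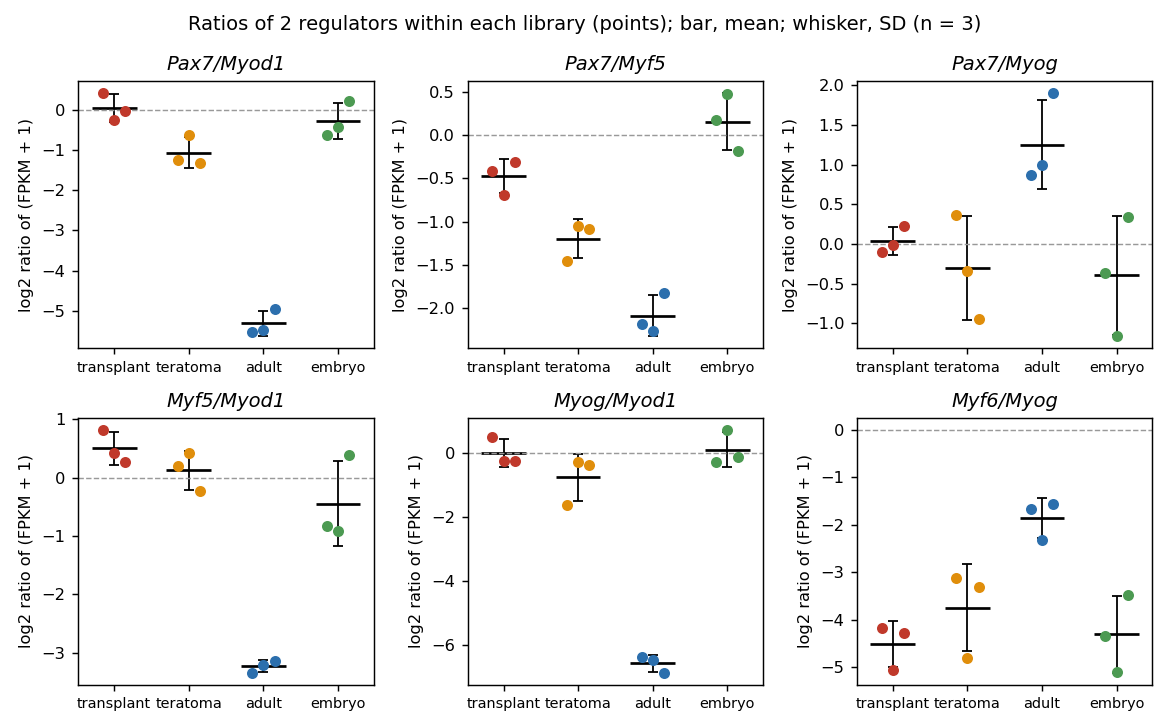
Ratios of 2 regulators within each library, as log2 of (FPKM + 1) over (FPKM + 1), 1 panel per ratio and 1 point per library; bars and whiskers give the mean and SD of 3 libraries. Adult libraries lie far below the others for Pax7, Myf5 and Myog relative to Myod1, at means of -5.32, -3.23 and -6.57, and the Pax7 to Myf5 panel shows 4 groups that do not overlap.

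The genes whose pattern over the 12 libraries was most like each member were taken by the root-mean-square difference of mean-centred log2(FPKM + 1), among 6479 genes with a mean of at least 5 FPKM. For Pax7, whose own SD over the libraries was 0.79, the nearest were Dtx4, Pld3 and Igfbp5, at differences of 0.23, 0.23 and 0.24. Igfbp5, a secreted binding protein of insulin-like growth factors, had 435 ± 32.1 FPKM in transplant, 226 ± 44.2 in teratoma, 106 ± 9.36 in adult and 146 ± 27.0 in embryo cells. Dmpk, the kinase gene mutated in myotonic dystrophy, was nearest to Myf5 at 0.22, before Pde1c at 0.24 and Aqp1 at 0.24.

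The neighbours of Myod1 were further away at 0.43 for Blnk, 0.47 for Akap2 and 0.49 for Bcar3, beside an SD of 1.67 for Myod1. Akap2, which encodes an anchor of protein kinase A, had 43.8 ± 11.9 FPKM in transplant, 44.7 ± 7.69 in teratoma, 235 ± 21.4 in adult and 11.9 ± 1.02 in embryo cells. The nearest to Myog were Nagk at 0.35, Stbd1 at 0.48 and Hes6 at 0.50. Hes6, a helix-loop-helix factor of the Hes family, had 13.2 ± 1.10 FPKM in transplant, 8.43 ± 2.57 in teratoma, 0.753 ± 0.460 in adult and 7.15 ± 1.81 in embryo cells. Parg at 0.19, Sap30l at 0.25 and Gnb1 at 0.25 were nearest to Pax3, and Cd47 at 0.45, Oxr1 at 0.46 and Fkbp2 at 0.47 to Myf6, whose SDs of 0.50 and 0.69 rest on levels near 0. All points share the same 12 libraries and the likeness is a description.

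Among the partners of the regulatory factors, the E protein genes Tcf3 and Tcf12 were lowest in adult cells. Of 6 tested bHLH partners and MEF2 cofactors, 4 were higher and 2 lower in transplant than in adult cells, 4 higher and 1 lower in teratoma than in adult cells, and 2 higher and 4 lower in adult than in embryo cells. Tcf3, a gene of E proteins, had 17.5 ± 3.30 FPKM in transplant, 24.4 ± 5.005 in teratoma, 3.998 ± 0.0266 in adult and 51.9 ± 9.16 in embryo cells. It fell in adult against embryo cells by 3.39 on the log2 scale (adjusted p = 1.13e-07) and was higher in transplant than in adult cells (log2 change 1.88, adjusted p = 2.51e-05). Tcf12, the E protein HEB, had 18.0 ± 1.62, 31.6 ± 9.40, 10.3 ± 1.85 and 41.4 ± 6.67 FPKM in transplant, teratoma, adult and embryo cells. Mef2c, a MADS-box factor that acts with the bHLH factors on muscle promoters, was at 4.998 ± 0.628 FPKM in transplant, 6.87 ± 0.876 in teratoma, 0.625 ± 0.345 in adult and 4.99 ± 1.49 in embryo cells. It was called in each comparison with adult cells and in none of the other 3. Mef2a and Mef2d went the other way, with their highest means in adult cells, at 39.7 ± 5.65 and 61.1 ± 11.2 FPKM. None of the 6 was higher and 2 were lower in transplant than in teratoma cells, where 0 were called after either rescaling. In transplant against embryo cells 2 were lower and none higher, with 2 lower and 2 higher after median-ratio scaling, and in teratoma against embryo cells 1 was higher and 1 lower. The medians of the list were -0.56, 0.87, -0.06, 1.27, 0.36 and -1.30 for transplant against teratoma, transplant against adult, transplant against embryo, teratoma against adult, teratoma against embryo and adult against embryo cells.

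Inhibitors of the regulatory factors, which hold bHLH activity down or compete for its partners, were also mostly lower in adult cells. Hey1 and Msc went the other way, with their highest means in adult cells, at 99.1 ± 11.65 and 76.4 ± 9.01 FPKM. Of 17 tested inhibitors, 12 were higher and 2 lower in transplant than in adult cells (median log2 change 1.17, beside 0.23 for all genes). The same numbers held for teratoma against adult cells (median 1.52, beside 0.50). In adult against embryo cells 3 were higher and 13 lower (median -1.39, beside -0.42). Between transplant and teratoma cells 6 were higher and 2 lower, with a median of 0.46 beside -0.28. Against embryo cells the counts were mixed, with 5 higher and 6 lower in transplant and 2 higher and 5 lower in teratoma cells. After median-ratio scaling 5 were higher and 3 lower in transplant than in embryo cells, and after quantile normalization 8 were higher and 2 lower in teratoma than in adult cells. The summed level of the list was 862 to 933 FPKM in transplant, 535 to 574 in teratoma, 353 to 358 in adult and 540 to 755 in embryo libraries.

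Bhlhe40, a bHLH repressor, was called higher in all 6 comparisons. It had 238 ± 12.8 FPKM in transplant, 101 ± 17.8 in teratoma, 29.6 ± 1.59 in adult and 14.0 ± 4.78 in embryo cells, and was higher in transplant than in teratoma cells (log2 change 1.24, adjusted p = 0.00124). Twist1, which sequesters E proteins, had 24.1 ± 5.92 FPKM in transplant, 27.9 ± 7.79 in teratoma, 3.56 ± 2.49 in adult and 83.2 ± 25.3 in embryo cells. It was lower in adult than in embryo cells (log2 change -4.36, adjusted p = 6.53e-06) and not called between transplant and teratoma cells (adjusted p = 0.79). Twist2, its close relative, had 2.03, 0 and 0.959 FPKM in transplant, 4.70, 9.76 and 8.93 in teratoma, 0, 1.07 and 3.01 in adult and 47.5, 20.3 and 52.1 in embryo libraries. Its embryo libraries lay above all others.

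**Figure D5:**
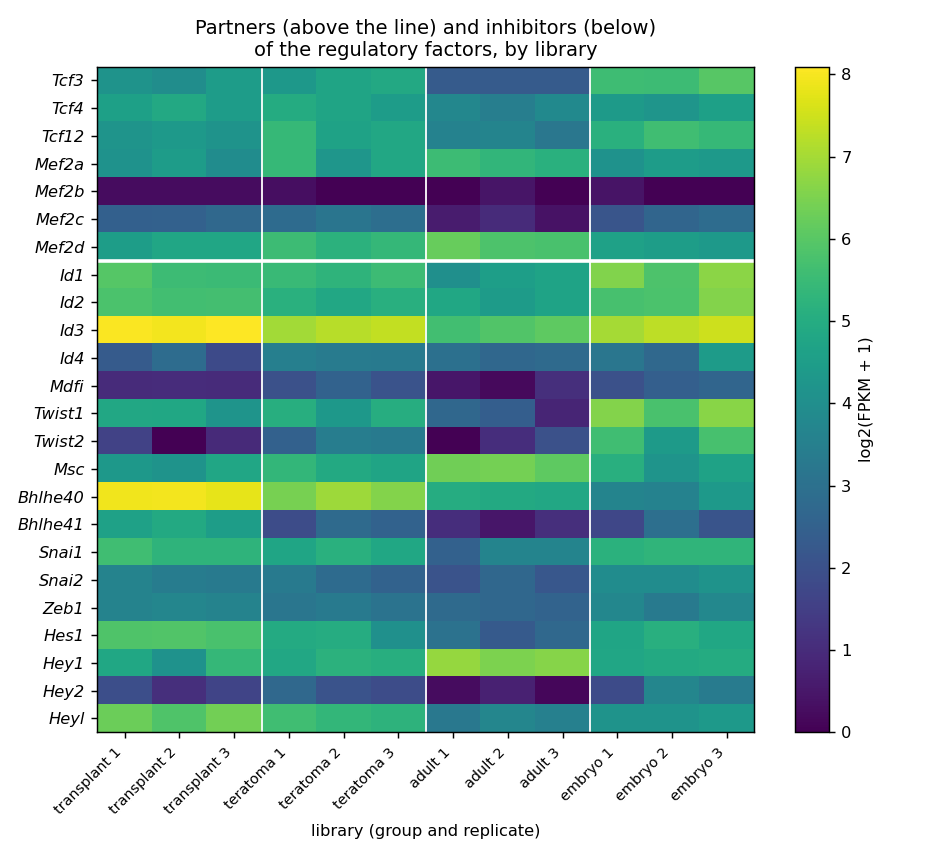
Levels of 7 bHLH partners and MEF2 cofactors (above the line) and 17 inhibitors of the regulatory factors (below) as log2(FPKM + 1) in 12 libraries, with transplant, teratoma, adult and embryo cells from left to right. Tcf3, Tcf12 and Mef2c are darkest in the adult columns, and Bhlhe40 is brightest in the transplant columns.

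A further list held factors that act upstream in the muscle network, such as the EYA1 and MEOX1 proteins. Of 18 tested, 2 were higher and 2 lower in transplant than in teratoma cells, 7 higher and 0 lower in transplant than in adult cells, and 2 higher and 6 lower in transplant than in embryo cells. In teratoma cells 8 were higher and 0 lower than in adult cells, and 2 higher and 4 lower than in embryo cells. In adult against embryo cells 0 were higher and 10 lower. After quantile normalization 6 were higher and 3 lower in teratoma than in adult cells, 3 higher and 3 lower in transplant than in embryo cells, and 3 higher and 7 lower in adult than in embryo cells. Meox1, a homeobox gene of the somites, had 18.9, 22.7 and 9.94 FPKM in transplant libraries and 2.57 FPKM or less in all others (log2 change 2.63 for transplant against teratoma cells, adjusted p = 0.000763). Tcf21, a bHLH gene known from head muscle precursors and fibroblast lineages, had 3.41, 4.80 and 3.41 FPKM in transplant and 8.76, 13.4 and 10.6 FPKM in teratoma libraries, against at most 0.142 FPKM in adult and 0.116 FPKM in embryo libraries. Pitx3, a homeobox gene of muscle and lens, had 7.12 ± 2.98 FPKM in transplant, 6.87 ± 2.03 in teratoma, 1.22 ± 0.608 in adult and 14.99 ± 3.96 in embryo cells.

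Among 9 tested targets and cofactors of PAX3 and PAX7, the calls went both ways. In transplant against teratoma cells 1 was higher and 2 lower, in transplant against adult cells 2 higher and 2 lower, and in transplant against embryo cells 3 higher and 4 lower. In teratoma against adult cells 2 were higher and 2 lower, in teratoma against embryo cells 2 higher and 4 lower, and in adult against embryo cells 3 higher and 4 lower. After median-ratio scaling 2 were higher and 4 lower in transplant than in adult cells, 1 higher and 4 lower in teratoma than in adult cells, and 5 higher and 2 lower in adult than in embryo cells, which turns the last balance. Itm2a, a membrane protein gene reported as a PAX3 target in the mouse, had 318 ± 42.8 FPKM in transplant, 720 ± 156 in teratoma, 120 ± 19.6 in adult and 566 ± 132 in embryo cells. It was lower in transplant than in teratoma cells (log2 change -1.17, adjusted p = 0.00284), while Pax7 was higher. Pax3, near 0 in both groups, was not called there (log2 change -0.36, adjusted p = 0.409). Each transplant library lay below each teratoma library for Pax3. Cxcr4, the chemokine receptor of migrating muscle precursors, had 38.7 ± 11.4 FPKM in transplant, 61.9 ± 12.7 in teratoma, 78.7 ± 7.48 in adult and 18.4 ± 15.6 in embryo cells. Ash2l, a subunit of histone methyltransferase complexes that PAX7 recruits, had 9.27 ± 2.45, 8.95 ± 2.67, 3.66 ± 0.548 and 20.2 ± 3.28 FPKM in transplant, teratoma, adult and embryo cells.

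Early differentiation genes that MYOD1 and MYOG activate were mostly higher in transplant and teratoma cells. Of 26 tested, 18 were higher and 2 lower in transplant than in adult cells, and 17 higher and 3 lower in transplant than in embryo cells. In teratoma cells 19 were higher and 3 lower than in adult cells, and 22 higher and 0 lower than in embryo cells. Between transplant and teratoma cells 4 were higher and 5 lower, and between adult and embryo cells 6 higher and 6 lower, which was 8 and 4 after median-ratio scaling. The medians were 1.41, 1.73, 1.98, 1.57, -0.36 and -0.30, in that order of comparisons, beside 0.23, -0.24, 0.50, 0.01, -0.28 and -0.42 for all genes.

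Acta1, skeletal muscle alpha-actin, had 44.4 ± 3.38 FPKM in transplant, 40.2 ± 19.3 in teratoma, 6.47 ± 4.47 in adult and 0.643 ± 0.388 in embryo cells. Actc1, the alpha-actin of heart and embryonic skeletal muscle, had 11.9, 13.7 and 21.3 FPKM in transplant, 57.8, 48.2 and 78.6 in teratoma, 0.132, 1.01 and 0 in adult and 98.9, 131.5 and 77.4 in embryo libraries. Musk, the receptor kinase of the neuromuscular junction, was, like Myod1, highest in adult cells, with 10.02 ± 3.92 FPKM in transplant, 6.54 ± 0.891 in teratoma and 33.6 ± 3.63 in adult cells (log2 change -1.71 for transplant against adult cells, adjusted p = 0.000775). It was listed at 0.814, 0 and 0 FPKM in the embryo libraries. Of 8 tested genes of mature fibres, 2 were higher and 0 lower in transplant than in teratoma cells, 3 higher and 0 lower in transplant than in adult cells, 7 higher and 0 lower in transplant than in embryo cells, 2 higher and 1 lower in teratoma than in adult cells, 5 higher and 0 lower in teratoma than in embryo cells, and 3 higher and 0 lower in adult than in embryo cells. After quantile normalization 0 were higher and 1 lower in teratoma than in adult cells.

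Cell cycle, quiescence and immediate early genes also differed between groups, and their part in the members' levels was not tested. All 12 tested cell cycle genes were lower in transplant than in teratoma cells (median log2 change -2.65) and in transplant, teratoma and adult cells than in embryo cells. In transplant against adult cells 3 were higher and 1 lower, and in teratoma against adult cells 11 higher and 0 lower. After quantile normalization 0 were higher and 1 lower in transplant than in adult cells, and without embryo replicate 2 the number lower in teratoma than in embryo cells was 10. Their summed level was 41.6 to 59.2 FPKM in transplant, 227 to 300 in teratoma, 108 to 115 in adult and 575 to 749 in embryo libraries. Pcna alone carried most of this sum in transplant and adult cells, at 31.1 ± 4.28 and 101 ± 6.06 FPKM. The order of transplant and adult cells in the sum rests on that gene. Birc5, a mitotic gene, had 1.11 ± 0.518 FPKM in transplant, 14.7 ± 2.15 in teratoma, 0.469 ± 0.171 in adult and 54.7 ± 9.66 in embryo cells.

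Of 15 tested genes of quiescent satellite cells, 5 were higher and 1 lower in transplant than in teratoma cells, 4 higher and 5 lower in transplant than in adult cells, and 13 higher and 1 lower in transplant than in embryo cells. In teratoma cells 6 were higher and 5 lower than in adult cells, which was 2 and 6 after median-ratio scaling, and 12 higher and 1 lower than in embryo cells. In adult against embryo cells 10 were higher and 2 lower. Sdc4, a proteoglycan of satellite cells, had 61.7 ± 10.2 FPKM in transplant, 77.3 ± 19.0 in teratoma, 332 ± 11.02 in adult and 8.77 ± 3.75 in embryo cells. Members of the list differed in order. Spry1 had 96.6 ± 16.2 FPKM in transplant and 35.2 ± 5.13 in adult cells. Cdkn1c had 18.3 ± 8.26 FPKM in adult and 572.5 ± 115 in embryo cells.

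Immediate early and stress genes, which tissue dissociation can induce, had a summed level of 5497 to 6935 FPKM in transplant, 3203 to 4144 in teratoma, 2287 to 2348 in adult and 1296 to 1946 in embryo libraries. Of 14 tested, 6 were higher and 1 lower in transplant than in teratoma cells, 13 higher and 0 lower in transplant than in adult cells, and 14 higher in transplant than in embryo cells. In teratoma cells 8 were higher and 0 lower than in adult cells, and 11 higher and 2 lower than in embryo cells. In adult against embryo cells 5 were higher and 5 lower. After median-ratio scaling the counts were 10 higher and 0 lower for transplant against teratoma cells, 4 higher and 3 lower for teratoma against adult cells, and 7 higher and 0 lower for adult against embryo cells. Fos had 873 ± 96.4 FPKM in transplant, 386 ± 77.3 in teratoma, 115 ± 6.47 in adult and 187 ± 33.6 in embryo cells.

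Markers of other cell types also differed between groups, and their part in the members' levels was not tested. In bulk RNA, a larger share of cells of a type and more RNA per cell cannot be told apart, for the regulators as for these markers. The 10 fibroblast genes summed to 5491 to 8664 FPKM in transplant, 3133 to 5032 in teratoma, 1179 to 1745 in adult and 2489 to 3605 in embryo libraries. Of them 3 were higher and 0 lower in transplant than in teratoma cells. That count was 7 and 0 after median-ratio scaling and 3 and 0 after quantile normalization. For transplant cells the counts were 8 higher and 0 lower against adult cells, and 8 and 0 against embryo cells. For teratoma cells they were 7 and 0 against adult cells, and 3 and 1 against embryo cells. Adult against embryo cells had 2 higher and 7 lower, which was 3 and 4 after median-ratio scaling and 3 and 7 after quantile normalization. Col1a1, Col1a2 and Col3a1 carried most of the sum, and members of the list differed in order: Dcn had 587.5 ± 120 FPKM in transplant, 182 ± 23.7 in teratoma, 256 ± 32.3 in adult and 139 ± 27.7 in embryo cells. Pdgfra, a receptor of mesenchymal progenitors, had 33.2 ± 3.45 FPKM in transplant, 19.4 ± 5.01 in teratoma, 6.90 ± 0.490 in adult and 31.9 ± 9.44 in embryo cells.

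Epithelial genes were high in teratoma cells and pluripotency genes were not. The 5 epithelial and 4 pluripotency genes of the list summed to 0.362 to 0.435 FPKM in transplant, 89.8 to 263 in teratoma, 0.634 to 2.29 in adult and 4.12 to 18.5 in embryo libraries. The 5 genes tested, all epithelial, were lower in transplant than in teratoma cells and higher in teratoma than in adult and embryo cells. Epcam was listed at 0 in the 3 transplant libraries and had 27.4, 34.4 and 5.76 FPKM in teratoma libraries. None of the 4 pluripotency genes passed the filter; Pou5f1 was at 0 in all transplant, teratoma and embryo libraries, and Nanog had at most 0.138 FPKM in teratoma libraries.

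The 10 vascular genes summed to 147 to 173 FPKM in transplant, 309 to 368 in teratoma, 86.4 to 107 in adult and 130 to 208 in embryo libraries, and 7 of them were lower and 0 higher in transplant than in teratoma cells. Pecam1, which encodes CD31, had 1.96 ± 0.485 FPKM in transplant, 7.08 ± 2.22 in teratoma, 3.34 ± 1.35 in adult and 3.68 ± 4.07 in embryo cells. The 9 leukocyte genes, 8 of them in the table, summed to 12.5 to 24.5 FPKM in transplant, 38.5 to 105 in teratoma, 7.31 to 15.7 in adult and 3.53 to 11.4 in embryo libraries. Ptprc, which encodes CD45, was at 1.44 FPKM or less in every library and at 0 in the 3 adult libraries.

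The 7 erythroid genes summed to 0.486 to 0.810 FPKM in transplant, 10.1 to 42.0 in teratoma, 3.69 to 24.7 in adult and 293 to 1988 in embryo libraries, and 5 of 6 tested were lower in adult than in embryo cells. The 17 neural and neural crest genes, which matter here because Pax3 and Pax7 are also expressed in that lineage, summed to 8.72 to 23.1 FPKM in transplant, 17.3 to 23.3 in teratoma, 26.4 to 41.2 in adult and 23.1 to 42.8 in embryo libraries. Sox10, a defining neural crest factor, had 0.178, 0.176 and 0.480 FPKM in transplant, 0.489, 0.844 and 0.106 in teratoma, 1.37, 0.734 and 0.793 in adult and 2.49, 2.01 and 5.05 in embryo libraries. Its embryo libraries, in which Pax3 was also highest, lay above all others.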

How the data were processed

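Total RNA of sorted cells was sequenced after collagenase II and dispase digestion, RNeasy purification with DNase I and SMARTer Stranded Total RNA-seq Pico library preparation, per the labels' protocols. Named without roles in the submitters' processing notes are mm10, Partek, Cufflinks 2.2.1.0, TopHat 0.7 and CASAVA 1.8.2. Per the file headers, the authors deposited FPKM values for each library and gene symbol in 1 table; the sources used here do not give its annotation, strand use or read depth. The low values show no steps from which reads could be recovered, so no counting intervals are given.

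The 23746 entries held 240 repeated symbols, whose values were summed, leaving 23284 symbols. All 12 columns matched 1 sample title each. The FPKM were tested on the log2 scale after adding 1, by limma 3.58.1 (R 4.3.3), with genes at 1 FPKM or more in at least 3 libraries (12699 genes), 1 model over the 4 groups (8 residual degrees of freedom), trended empirical Bayes and Benjamini-Hochberg adjustment over all tested genes. Ratios between members were tested by exact permutation over all libraries, with Python 3.11.15, numpy 2.4.6 and pandas 2.3.3. P-values measure the spread between these libraries; nothing in the labels says that replicates came from separate animals.

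Besides the 6 members, the text names the 3 genes most like each member, up to 3 genes with the widest range of group means from each of 15 gene lists, 6 defining markers of other cell types and the sort genes. Further genes of some lists are named where they carry a sum or differ in order from others of their list. The members and lists were chosen with earlier results of these data known. The changes of members and the counts of called genes and members were computed again leaving out each library, with quantile normalization or median-ratio scaling, without the filter or with one at a mean of 5 FPKM, with a pseudocount of 0.1, with quality weights, with the replicate number as block, from only the 2 groups compared, and with a minimum log2 change of 1. Ratios were computed again leaving out each library, with a pseudocount of 0.1 and with the block. Counts over gene lists were computed again with both rescalings and without embryo replicate 2. The test of the difference between 2 changes was added after values were seen. The steps were tested on simulated data. Some genes of the lists are counted with their list and are not reported by name here.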

Additional observations from a re-analysis of the deposited data

Results flagged for a closer look

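The change of 4 members between transplant and teratoma cells differed from their change between adult and embryo cells, in a test of the difference itself that was added after values were seen (limma, same model and 12 libraries). Of all tested genes, 38.9% were called in that test. Pax7 was higher in transplant than in teratoma cells and lower in adult than in embryo cells, by log2 changes of 0.82 and -0.58, and the first exceeded the second by 1.40 (SE 0.27, adjusted p = 0.00193).

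Myod1 changed by -0.28 and 4.45 in the same pairs of groups, a difference of -4.73 (SE 0.41, adjusted p = 1.01e-05). Myf5 changed by 0.09 and 1.67, a difference of -1.57 (SE 0.29, adjusted p = 0.00144). Myog changed by 0.48 and -2.22, a difference of 2.70 (SE 0.54, adjusted p = 0.00229). The calls for these 4 genes kept their direction and their side of the threshold under every alternative run for them. Both changes are taken from groups that differ in age, site and cell cycle gene levels, which cannot be told apart here.

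Pax3 and Myf6 were not called in this test, with differences of 0.32 (adjusted p = 0.561) and -0.51 (adjusted p = 0.563).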

How the results depend on the processing

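Of 744 values of members under alternatives, 704 kept direction and side of the threshold, 21 lost the call, 10 gained it and 9 changed sign; all 9 belong to changes that were not called. These were Pax3 in transplant against teratoma cells (0.0593 with quantile normalization), Myf5 there (-0.052 without teratoma replicate 3, -0.0251 without transplant replicate 3, range -0.052 to 0.294 with 1 library left out), Myod1 there (0.0265 with median-ratio scaling), Myf6 there (0.0317 with library quality weights, 0.163 without teratoma replicate 3, 0.145 without transplant replicate 2, range -0.778 to 0.163), Pax3 in teratoma against adult cells (0.0569 without adult replicate 1, range -0.275 to 0.0569) and Myf5 in teratoma against adult cells (-0.167 with median-ratio scaling).

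The number of members called, Pax3 and Myf6 included, with 1 library left out ranged from 1 to 1 for transplant against teratoma, 3 to 3 for transplant against adult, 4 to 6 for transplant against embryo, 3 to 4 for teratoma against adult, 2 to 3 for teratoma against embryo and 3 to 5 for adult against embryo cells. With a log2 change of at least 1 required, 0 members in place of 1 were called in transplant against teratoma cells, since Pax7 changed by 0.82. Adjusted p-values of the exact permutation tests of ratios with 1 library left out ranged from 0.000779 to 0.00584 for Pax7 to Myod1, 0.00039 to 0.000779 for Pax7 to Myf5, 0.00818 to 0.132 for Pax7 to Myog, 0.000779 to 0.00847 for Myf5 to Myod1, 0.00429 to 0.0145 for Myog to Myod1 and 0.00452 to 0.0404 for Myf6 to Myog. The Myf6 to Myog ratio was not called with a pseudocount of 0.1 (adjusted p = 0.143). Pax3 and Myf6 have no value under the filter at a mean of 5 FPKM, which removes them.

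Replicate numbers gave no sign of pairing. The correlation of deviations was -0.095 to 0.096 over 18 same-numbered pairs, beside -0.101 to 0.143 over 36 other pairs. With 3 libraries in each group, these values cannot show that the samples were unpaired. With the replicate block, the Pax7 to Myog ratio had an exact permutation adjusted p of 0.0538, and Myog in transplant against embryo cells an adjusted p of 0.0542; no other member or ratio call changed. The cause was not tested.

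Over all genes, 2874 were called in transplant against teratoma cells, and 1706 without teratoma replicate 1, 1805 without transplant replicate 1 and 1623 with a log2 change of at least 1. With the filter at a mean of 5 FPKM, fewer genes were tested, and 3720 in place of 5763 were called in teratoma against adult cells, 2084 in place of 3308 in teratoma against embryo cells and 4370 in place of 6699 in adult against embryo cells. The share of called genes that were higher was 18.5%, 61.7%, 35%, 80.3%, 59.4% and 30% as deposited, and 43.3%, 51.8%, 51.3%, 53.1%, 59.6% and 49.9% with median-ratio scaling, for transplant against teratoma, transplant against adult, transplant against embryo, teratoma against adult, teratoma against embryo and adult against embryo cells. Read depth is unknown, which limits what can be said of Pax3 and Myf6 near 0.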
